A study of Ovis aries with 26 samples.

Results

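Sheep embryos at the 8-cell stage (8C, 4 libraries) were compared with embryos at the 2-cell stage (2C, 4 libraries), 8 of the 26 libraries in the series. Oocytes had been matured, fertilized in vitro with capacitated sperm and moved to culture as zygotes, and whole embryos were then collected at each stage. Embryos of both groups carried no genetic change or added agent that the labels name. The labels give neither the hours of culture, the breed, nor the number of embryos or donor ewes behind a library. Nothing says that libraries of a stage came from separate cultures, so the spread that p-values rest on may be technical. Metaphase II oocytes (MII, 2 libraries), 4-cell embryos (4C, 3) and 16-cell embryos (16C, 3) stand on either side of the comparison and are given as levels beside it. Gene levels are FPKM, the fragments per kilobase of gene, scaled to the fragments assigned in the library. Of 30186 genes in the deposited table, 10518 reached an FPKM of at least 1 in at least 2 of the 8 libraries and were tested.

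A mammalian embryo starts with messenger RNA made in the oocyte. During the first cleavages this maternal RNA is translated, stored or degraded, and the embryo's own genome is switched on in steps, with a minor phase before a major one. In sheep and cattle the major phase is known to fall at about the 8-cell to 16-cell stage, so the interval from 2C to 8C covers the cleavages that lead up to it. Because the libraries were primed on poly(A), a level here is the share of polyadenylated RNA that a gene holds. Neither the RNA per embryo nor the length of poly(A) tails was measured, and less RNA per cell cannot be told apart from fewer cells that hold it.

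The 8 libraries were close in depth, while their correlations separated the stages only in part. The 2C libraries correlated more closely with each other than with any 8C library, but the highest value between stages exceeded the lowest among 8C libraries. Reads assigned to genes, recovered from the steps of the deposited values, ranged from 30.7 to 35.6 (in units of 1e6). Across the tested genes, Pearson's correlation of log2(FPKM + 1) ran from 0.967 to 0.989 among 2C libraries, from 0.959 to 0.972 among 8C libraries and from 0.926 to 0.963 between the stages. Genes are not independent replicates, so these values describe the libraries only. All 10 oocyte and early embryo identity genes on the marker list were tested, their summed FPKM was 5120 to 6030 at 2C and 4660 to 6920 at 8C, and none was called changed, with 1 at an unadjusted p under 0.05 in limma. The number of genes that reached an FPKM of 1 was 9562, 9211, 9103 and 8972 in 2C libraries 1 to 4 and 9551, 9852, 9678 and 9770 in 8C libraries 1 to 4. The means were 9212 ± 253 (SD, n = 4) and 9712.8 ± 129 (SD, n = 4). The difference of 500.8 genes gave p = 0.0571 in a two-sided exact permutation test, whose smallest possible p was 0.0286, since the library 2C 1 reached the level of the lowest 8C library. With FPKM rescaled to a common sum (TPM scale) the difference was 546.2 genes, with an exact permutation p = 0.0286.

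From 2C to 8C 173 genes rose and 144 fell, on a background in which most tested genes stayed within the size required for a call. The genes that rose were led by genes with little or no RNA at 2C, among them the genome activation gene ZSCAN4, and 43 of them differed by at least 2 on the log2(FPKM + 1) scale. The genes that fell were led by COMMD8 and the centrosome gene CEP170, and 2 of them differed by that much. A gene was called when its Benjamini-Hochberg adjusted p in limma was under 0.05 and its difference at least 1. The 173 higher genes were 1.64% of those tested, the 144 lower genes 1.37%, and both together 3.01%. The median difference of the higher genes was 1.26, and the median of their mean FPKM was 1.14 at 2C and 9.29 at 8C. For the lower genes the median difference was -1.19, with medians of 22.2 at 2C and 8.82 at 8C. Every 8C library lay above every 2C library for 160 of the 173, beside 1451 of all tested genes (13.8%). Every 8C library lay below every 2C library for 137 of the 144, beside 930 of all tested genes (8.84%). In either direction 2381 tested genes (22.6%) did not overlap. The median difference over all tested genes was 0.085. It was 0.012 after median-ratio scaling, which turned the split to 127 higher and 196 lower genes, and -0.006 after quantile normalization, which gave 124 and 195.

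**Figure D1:**
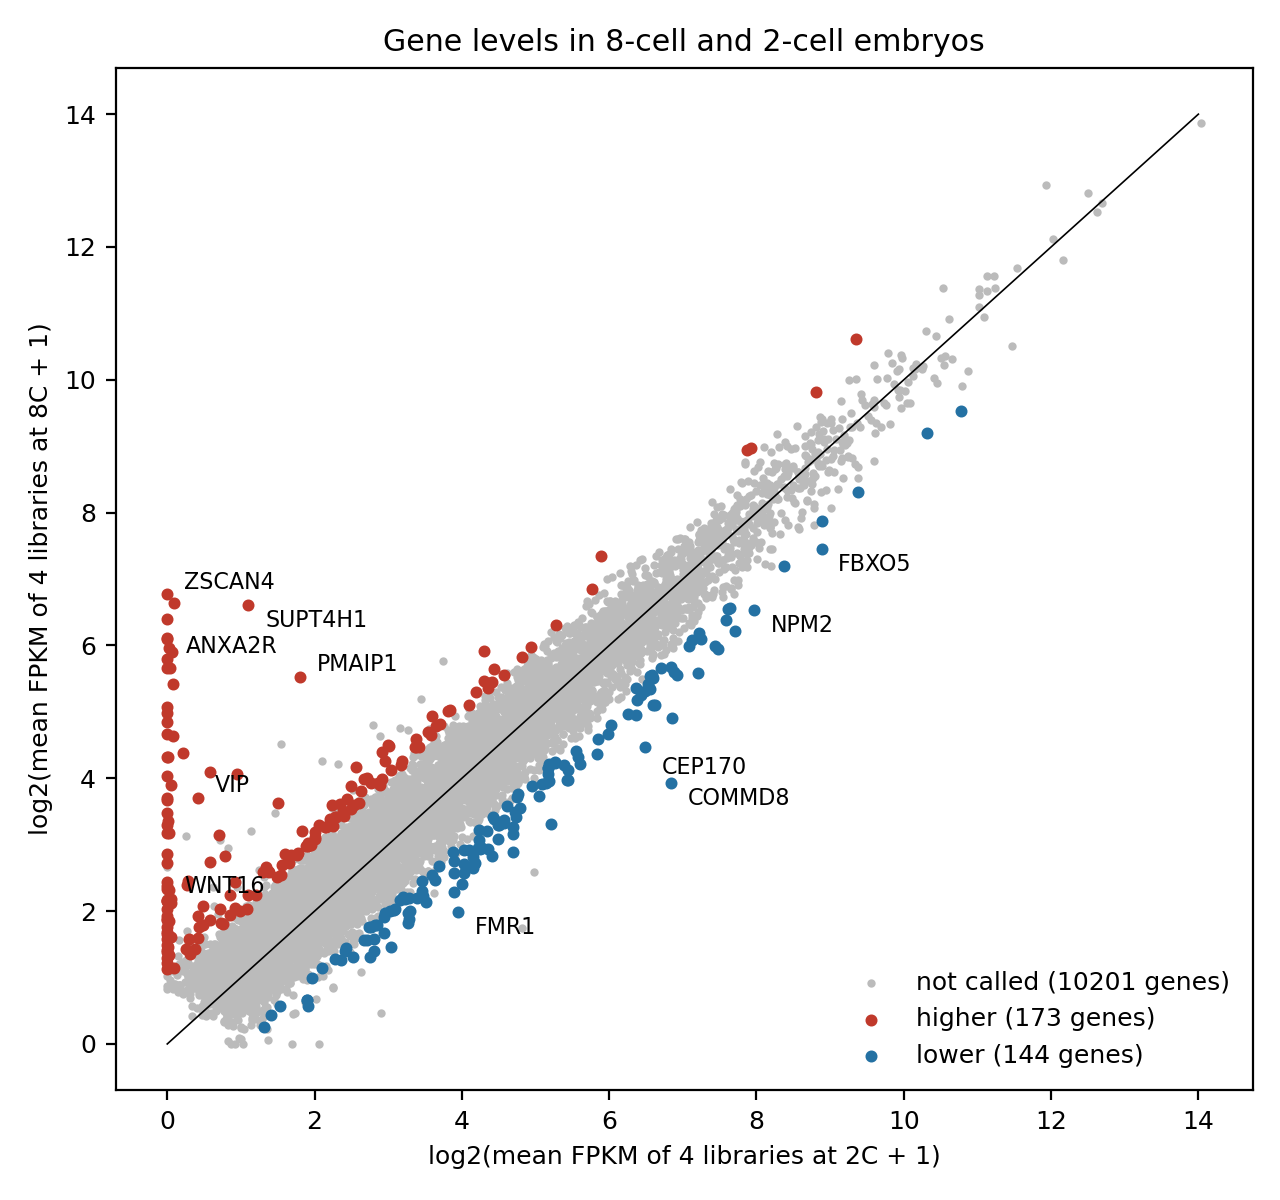
Level of each of the 10518 tested genes at 8C against 2C, as log2 of the mean FPKM of 4 libraries plus 1. Red points are the 173 genes called higher, blue points the 144 called lower, grey points the rest, and the line marks equal levels. Red points stack up at the left edge, where the 2C level is near 0, while blue points run along the diagonal over a wide range of levels.

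Transcripts below the detection threshold in oocytes and at 2C made up the strongest part of the increase. Of the 173 higher genes, 71 were below an FPKM of 1 in every MII and every 2C library. Counts over these 71 are descriptions, because the comparison's own values chose them, and p-values of single genes come from the fit over all tested genes. There were 39 of them listed at 0 in every 2C library, and 43 reached at least 1 in every 8C library. At 4C, 36 reached at least 1 in some library, and at 16C 37 did so in every library (52.1%, beside 75.5% of all tested genes). Only 14 carry a name other than a LOC number, among them ZSCAN4, ANXA2R, VIP, FAM90A26, WNT16, LPAR6, MIR17, HESX1, KRTAP6-1, KLF17, TMEM125, CBLN2 and a lysine tRNA gene. Without 2C 2 or without 2C 3, 45 and 46 of the 71 were still called, and with no filter on low values 47 were.

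ZSCAN4, a SCAN-domain zinc finger gene known as a marker of genome activation in mouse and human embryos, was listed at 0 in both MII and all 4 2C libraries. It stood at 0, 1.32 and 17 in the 3 4C libraries, at 29.2, 50.9, 235 and 118 in the 4 8C libraries and at 219, 322 and 249 at 16C. The stages did not overlap, and ZSCAN4 rose by 6.35 ± 0.51 (SE, adjusted p = 0.00017). Its level differed by several fold among 8C libraries, with 8C 1 lowest and 8C 3 highest. ANXA2R, which encodes a receptor for annexin A2, was at 0 in 3 2C libraries and at 0.0643 in 2C 4. At 8C it was at 2.09, 46.4, 121 and 76.3, so that 8C 1 was far below the other three, and it rose by 5.08 ± 0.92 (SE, adjusted p = 0.0076). VIP, the gene for vasoactive intestinal peptide, was at 0.696, 0, 0.538 and 0.114 at 2C and at 6.24, 10.1, 19.6 and 12.4 at 8C, without overlap, and rose by 3.22 ± 0.30 (SE, adjusted p = 0.00036). WNT16, a secreted WNT ligand, was listed at 0 in all 4 2C libraries and was at 2.33, 2.55, 7.77 and 5.04 at 8C, and rose by 2.32 ± 0.29 (SE, adjusted p = 0.0014). LPAR6, a receptor for lysophosphatidic acid, was at 0.874, 0.666, 0.168 and 0.283 at 2C and at 2.51, 10.4, 3.94 and 5.73 at 8C, and rose by 2.04 ± 0.33 (SE, adjusted p = 0.0047). FAM90A26 was at 0 in every 2C library and at 0.263, 5.8, 5.66 and 10.6 at 8C, and rose by 2.34 ± 0.55 (SE, adjusted p = 0.02). The call for FAM90A26 was lost without 2C 2 (adjusted p = 0.055), without 2C 3 (adjusted p = 0.054) and without 8C 2 (adjusted p = 0.052). No fold change is given for genes listed at 0 at 2C, and the size of their log2 difference depends on the value of 1 added before taking logs.

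KLF17, a Krueppel-like factor of early embryos, showed the low end of this group. It was at 0 in every MII and 2C library, at 0.352, 0.992, 2.26 and 1.12 at 8C and at 55.1, 70.4 and 50.1 at 16C. It rose by 1.05 ± 0.25 (SE, adjusted p = 0.02) from 2C to 8C, and the call was lost without 2C 2 (adjusted p = 0.058), without 2C 3 (adjusted p = 0.056) and without 8C 3, where the difference was 0.838. The homeobox gene HESX1, named only after its values were seen, was at 0.145, 0.779, 0.663 and 0.399 at 2C and at 1.47, 1.30, 5.01 and 2.81 at 8C. It stayed within a few FPKM of the detection threshold.

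**Figure D2:**
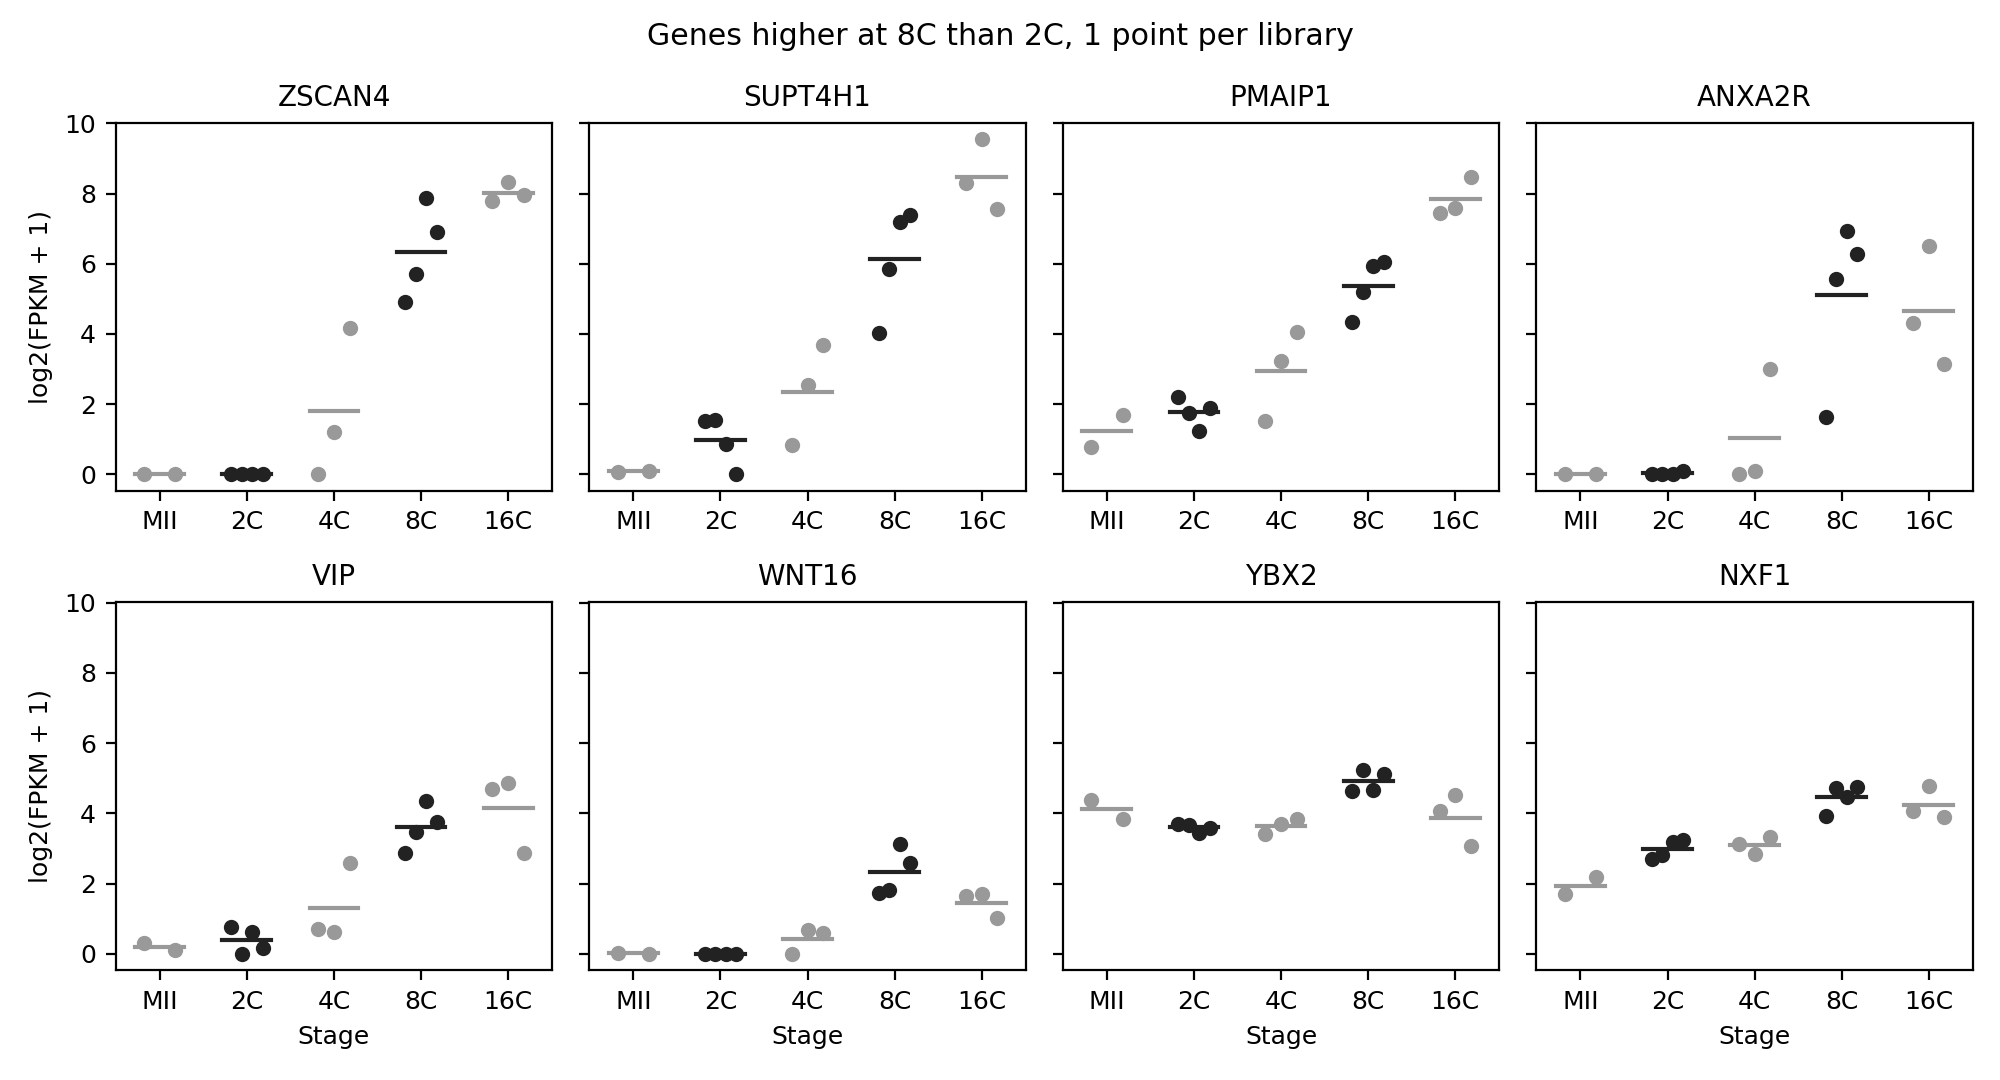
Levels of 8 genes called higher at 8C than at 2C, as log2(FPKM + 1), in MII oocytes and in 2C, 4C, 8C and 16C embryos. Each point is 1 library, each bar the mean of a stage, and black marks the compared stages. ZSCAN4 and WNT16 are at 0 in all 4 2C libraries, while YBX2 and NXF1 start from a measurable level.

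Genes known only by a LOC number formed the bulk of the newly detected set, and many of them were neighbours in gene order. They were 57 of the 71 (80.3%), against 16 of the other 102 higher genes (15.7%) and 18.1% of all tested genes. Differences of at least 3 were found for 24 of the 71, and 21 of these were LOC genes. LOC114110154 was at 0, 0, 0 and 0.25 at 2C and at 39.9, 31.5, 163.9 and 158.3 at 8C. LOC105609441 had a listed value of 0 at 2C throughout and was at 30.3, 43.1, 122.1 and 137.5 at 8C. LOC101111473 was also listed at 0 at 2C and was at 15.5, 42.1, 133.7 and 77.5 at 8C. For all 3 genes the libraries 8C 3 and 8C 4 were above 8C 1 and 8C 2. The products of these genes are not described here, since the files give no more than their numbers.

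The gene order of the RefSeq sheep assembly ARS-UI_Ramb_v3.0 was used to see which of these genes are neighbours. Of the 71 genes 64 could be placed, and 35 of them (54.7%) had another newly detected gene at most 3 genes away. Each of the other sets was counted against its own members. Among the other higher genes 13 of 96 placed genes (13.5%) had a member of that set so near, and among the lower genes 0 of 137. These shares are descriptions with no test, and the distance was chosen after the values were seen. The 35 genes fell into 9 stretches, all of them made up of LOC genes. The longest stretch held 8 of them within 11 annotated genes, including LOC114110154, LOC101110632, LOC101121215 and LOC114110159. All 8 tested genes of that stretch rose, by 1.21 to 6.18. Their summed FPKM was 0.236, 0, 0 and 0.25 at 2C, then 0.417, 11.1 and 49.9 at 4C, and 86.8, 97.5, 353 and 337 at 8C. A further stretch held 7 of them, including LOC101111473 and LOC101112749. Its sum was 0, 0, 0.0388 and 0.115 at 2C and 32.2, 81.9, 244 and 150.0 at 8C. The third, again of 7 genes and including LOC114118080 and LOC114118087, was the weakest of these, with sums of 0.0405, 0.604, 0.660 and 1.35 at 2C and 7.89, 20.5, 113 and 56.8 at 8C. In both stretches of 7 genes, 1 more gene was tested and not called. The choice of members fixes that these sums are higher at 8C. Among the 8C libraries 8C 1 was lowest and 8C 3 highest in each of the 3 stretches. Neighbouring genes of 1 family can be near-identical copies, and how the authors' counting shared reads between copies is not given in the sources used here, so the number of separate genes behind each stretch is uncertain.

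The other 102 higher genes reached an FPKM of 1 in at least 1 MII or 2C library, some of them barely. Among them 86 were at an FPKM of at least 1 in both MII libraries (84.3%, beside 76.3% of all tested genes). At 16C 95 were at least 1 in every library (93.1%, beside 75.5%). SUPT4H1 encodes a subunit of DSIF, a factor that controls the pausing and elongation of RNA polymerase II. It was at 0.0554 and 0.0686 in MII oocytes, at 1.86, 1.9, 0.83 and 0 at 2C and at 0.767, 4.88 and 11.8 at 4C. At 8C it was at 15.3, 56.9, 146 and 168, and it rose by 5.14 ± 0.66 (SE, adjusted p = 0.0017). PMAIP1, also called NOXA, is a p53 target that promotes apoptosis. It was at 3.61, 2.38, 1.36 and 2.67 at 2C and at 19.2, 35.8, 60.1 and 65.1 at 8C, without overlap, and rose by 3.61 ± 0.35 (SE, adjusted p = 0.00048). RSRP1, which encodes an arginine- and serine-rich protein, was at 1.77, 0.411, 0.237 and 0.0691 at 2C and at 4.35, 7.0, 11.4 and 8.61 at 8C, and rose by 2.49 ± 0.33 (SE, adjusted p = 0.002). Of its MII and 2C libraries only 2C 1 reached an FPKM of 1, with MII at 0.319 and 0.222. The zinc finger gene ZNF596 was at 1.47, 2.25, 1.86 and 1.79 at 2C and at 4.03, 6.09, 22.8 and 12.7 at 8C, and rose by 1.88 ± 0.40 (SE, adjusted p = 0.014). SUPT4H1, PMAIP1, RSRP1 and ZNF596 all stood higher still in each of the 3 16C libraries.

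Smaller increases were seen in genes that were above an FPKM of 1 in every 2C library. NXF1, the main export receptor of messenger RNA, was at 5.47, 6.07, 8.04 and 8.39 at 2C and at 14.3, 25.3, 21.2 and 25.9 at 8C, and rose by 1.49 ± 0.20 (SE, adjusted p = 0.0024). C13H20orf27 was at 2.08, 5.7, 5.39 and 6.56 at 2C and at 10.3, 13, 17 and 27.4 at 8C, and rose by 1.59 ± 0.33 (SE, adjusted p = 0.013). C22H10orf143 was at 4.32, 7.22, 8.2 and 8.38 at 2C and at 13.3, 16.1, 15.9 and 40.7 at 8C, with 8C 4 far above the other three, and rose by 1.38 ± 0.32 (SE, adjusted p = 0.02). The call for C22H10orf143 was lost without 2C 2 (adjusted p = 0.053). Of these 102 genes 49 were still called without 8C 4, 64 without 2C 2 and 61 without 2C 3, 60 after median-ratio scaling, 59 after quantile normalization and 66 with no filter on low values.

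Most genes known from genome activation in other mammals were below the level for a test or were not called. Of 26 such genes that had a row, 12 reached the level for a test. Of these 12, 3 rose (KLF17, PMAIP1 and ZSCAN4) and 1 fell, with a median difference of 0.20. Of all tested genes 1.64% rose and 1.37% fell. ZSCAN4 and KLF17 were at 0 in every 2C library and passed the filter through their 8C values alone. The filter thus favours a larger share of rising genes, and the list was chosen with earlier results known. EIF1AX, a translation initiation factor known as an early transcript of bovine embryos, was the gene that fell. It was at 519, 368, 231 and 199 at 2C and at 168, 183, 121 and 114 at 8C, and fell by 1.09 ± 0.29 (SE, adjusted p = 0.03). That call was lost without 2C 1 (difference -0.836), 2C 2 (adjusted p = 0.087), 8C 3 (adjusted p = 0.067) or 8C 4 (adjusted p = 0.077). The homeobox gene ARGFX was at 0.23, 0.108, 1.45 and 1.08 at 2C and at 0.0975, 2.25, 0.752 and 1.02 at 8C, a difference of 0.22 (adjusted p = 0.72), and at 42.5, 88.9 and 1417 at 16C. OTX2 and KDM5B did not reach the level needed for a test, OTX2 staying between 0 and 0.625 and KDM5B between 0.105 and 1.05 in the 8 libraries. Without 2C 2, 2C 3 or 8C 3 the list had 2 higher genes. With no filter on low values 24 of its genes were tested, of which 3 were called higher and 0 lower. The genes KDM4E and H1-8 were not analysed here.

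No lineage gene on the lists was called, where 3.01% of all tested genes were. None of 8 tested pluripotency genes, 19 trophectoderm genes and 9 primitive endoderm genes passed in limma, with median differences of 0.22, 0.19 and 0.21. At an unadjusted p under 0.05 there were 1, 5 and 1 genes, all of them higher at 8C (12.5%, 26.3% and 11.1%, beside 32.3% of all tested genes). POU5F1, a core pluripotency factor, was at 1.01, 1.46, 1.22 and 1.77 at 2C and at 1.88, 1.61, 1.19 and 3.69 at 8C (adjusted p = 0.36). KLF4, another pluripotency factor, was at 1.57, 1.38, 1.32 and 1.81 at 2C and at 3.23, 3.82, 3.29 and 4.49 at 8C. Its libraries did not overlap, and its difference of 0.90 ± 0.15 (SE, adjusted p = 0.0058) missed the size required. It was 1.05 on the TPM scale and 1.23 with 0.1 added before taking logs, where it would be called. NANOG was at 0, 0, 0.172 and 0 at 2C and at 0, 0, 1.89 and 1.5 at 8C (adjusted p = 0.23). WWC1, a scaffold of the Hippo pathway on the trophectoderm list, was at 0.614, 0.543, 0.689 and 0.556 at 2C and at 1.7, 1.71, 0.826 and 1.95 at 8C, a difference of 0.65 (adjusted p = 0.04).

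Nearly all transcripts that fell were already present in oocytes. Of the 144, 141 were at an FPKM of at least 1 in both MII libraries (97.9%, beside 76.3% of all tested genes). At 16C 118 were still at least 1 in every library (81.9%, beside 75.5%). A fall of at least 1 requires RNA at 2C, so the choice of these genes itself favours such counts. COMMD8, a subunit of the Commander complex that sorts membrane proteins at endosomes, changed most. It was at 89.6 and 101 in MII oocytes, at 97.3, 135, 105 and 115 at 2C, at 75.6, 29 and 29.1 at 4C and at 20.2, 15.7, 11.9 and 9.19 at 8C, and fell by 2.95 ± 0.21 (SE, adjusted p = 0.0001). COMMD1, a second protein of that complex, was at 20.0, 13.5, 13.6 and 12.8 at 2C and at 6.88, 2.67, 4.33 and 3.34 at 8C, and fell by 1.63 ± 0.24 (SE, adjusted p = 0.0031). CEP170, a protein of the mother centriole, was at 81.9, 100.0, 95.3 and 78.4 at 2C and at 29.1, 23.8, 20.9 and 11.3 at 8C, and fell by 2.08 ± 0.24 (SE, adjusted p = 0.001). CLINT1, an epsin-like partner of clathrin, was at 129, 118, 105 and 105 at 2C and at 36, 28.4, 26.2 and 25 at 8C, and fell by 1.96 ± 0.14 (SE, adjusted p = 0.0001). In none of these 4 genes did the stages overlap.

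TBC1D15, KIF3A, PPP1R15B, GNPNAT1 and ANKRD13C were among the other large decreases. TBC1D15, which switches off the late endosome GTPase RAB7, fell by 1.59 ± 0.22 (SE, adjusted p = 0.0023), from 177 ± 6.35 to 60.9 ± 21.1 (SD, n = 4 each). The kinesin-II motor gene KIF3A fell by 1.69 ± 0.24 (SE, adjusted p = 0.0029), from 147 ± 19.2 to 47.1 ± 17.1. PPP1R15B directs a phosphatase to the initiation factor eIF2 and so keeps translation going. It was at 27.2, 37.5, 38.7 and 40.6 at 2C and at 11.5, 10.6, 6.99 and 6.7 at 8C, and fell by 1.91 ± 0.20 (SE, adjusted p = 0.00055). GNPNAT1, an enzyme on the route to UDP-N-acetylglucosamine, fell by 1.51 ± 0.11 (SE, adjusted p = 0.00011), from 97.4 ± 8.33 to 33.5 ± 2.90. ANKRD13C fell by 1.60 ± 0.17 (SE, adjusted p = 0.00066), from 13.8 ± 2.56 to 3.88 ± 0.787. The 12 genes with the largest decreases kept their calls when any 1 of the 8 libraries was left out.

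**Figure D3:**
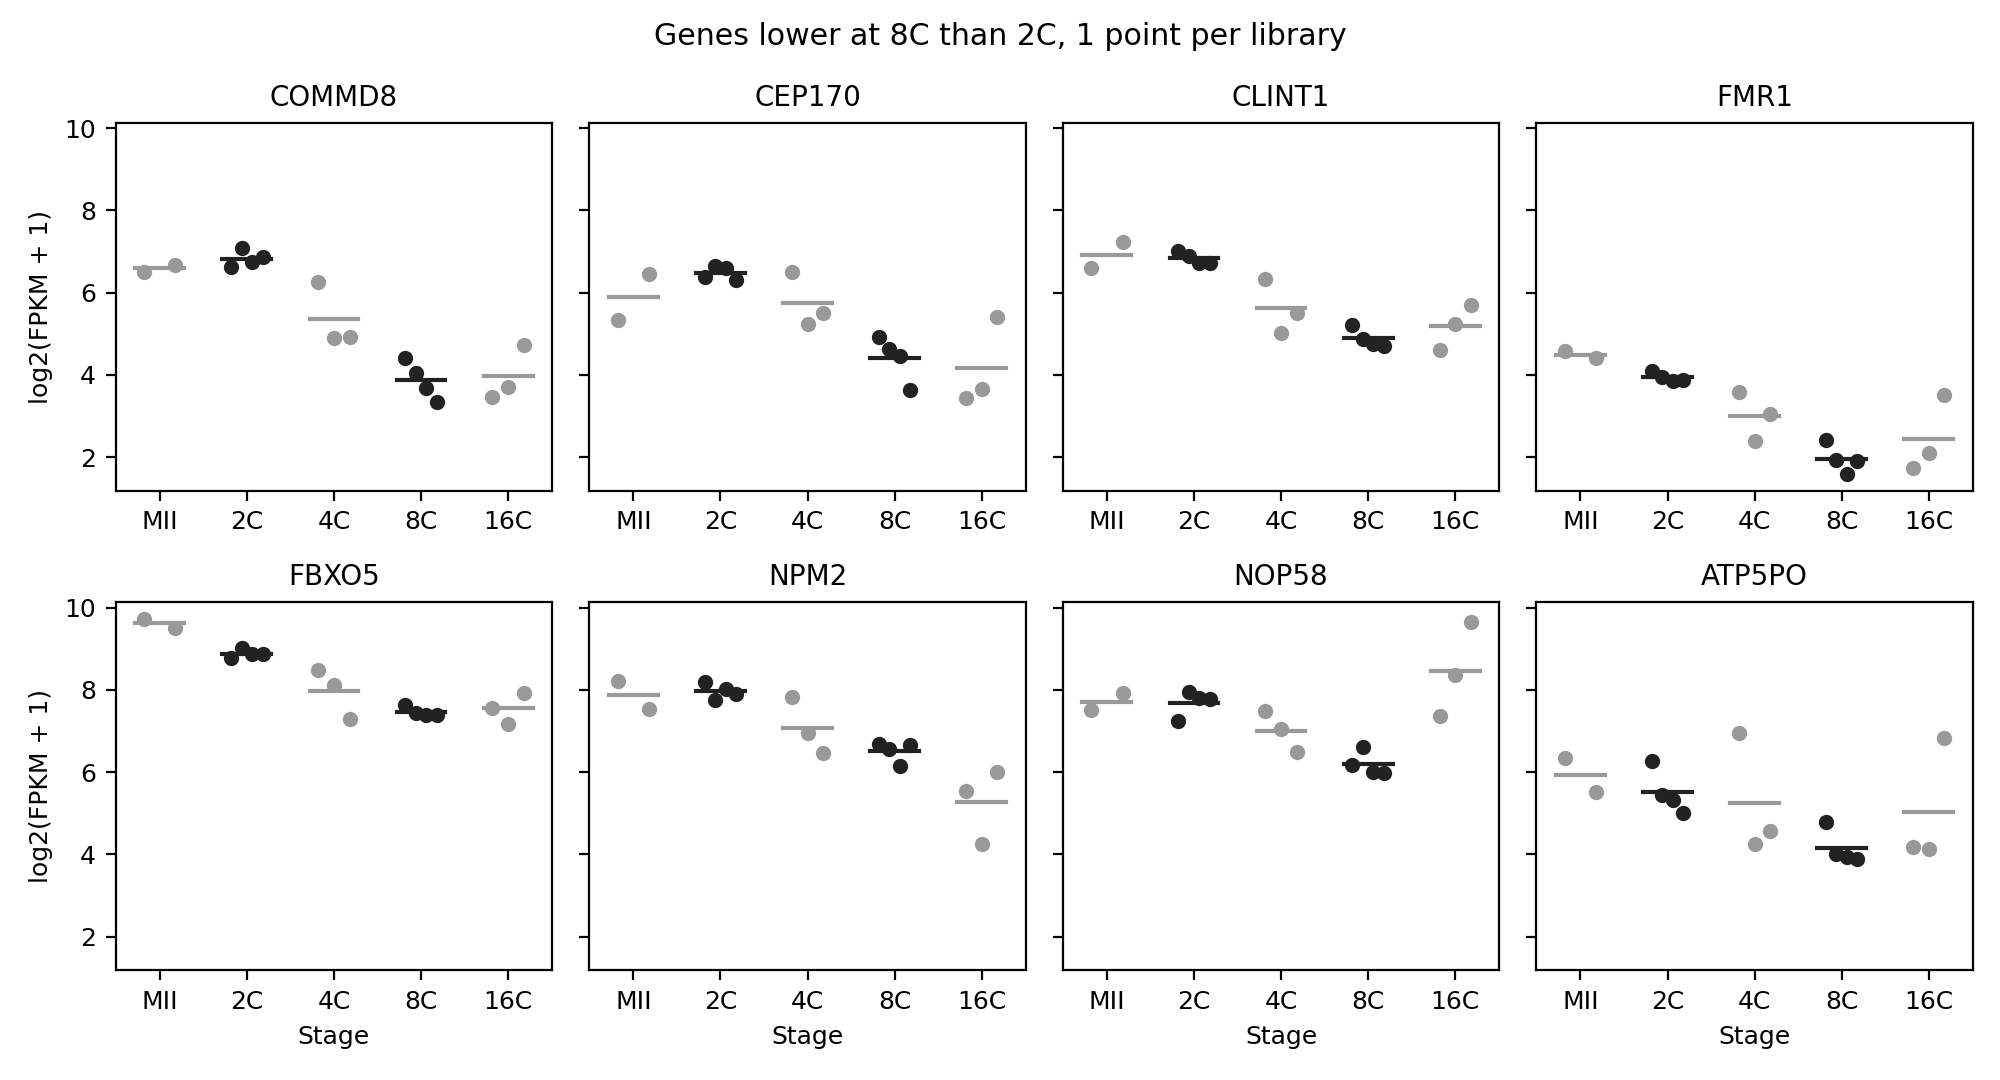
Levels of 8 genes called lower at 8C than at 2C, as log2(FPKM + 1), drawn in the same way as for the rising genes. In each panel all 4 8C libraries lie below all 4 2C libraries, and the first of the 3 4C libraries lies above the other 4C libraries.

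Among well-known oocyte transcripts NPM2 fell and YBX2 rose. They were the called genes of 38 tested oocyte and maternal-effect genes (2.63% in each direction, beside 1.64% higher and 1.37% lower of all tested genes), with a median difference of -0.0094. NPM2, the egg nucleoplasmin that helps to remodel sperm chromatin, was at 289, 216, 257 and 236 at 2C and at 103, 93.2, 69.7 and 100.2 at 8C, and fell by 1.45 ± 0.15 (SE, adjusted p = 0.00054). YBX2, a germ cell protein that packages stored messenger RNA, was at 11.9, 11.7, 9.88 and 11 at 2C and at 23.7, 36.6, 24.2 and 33.9 at 8C, and rose by 1.31 ± 0.16 (SE, adjusted p = 0.0014). BTG4, the adaptor that brings the CCR4-NOT deadenylase to maternal messages, was at 1950.4, 2192, 2587 and 2257 at 2C and at 2065, 2584, 2774 and 2922 at 8C (adjusted p = 0.35). The oocyte growth factor gene GDF9 was at 399, 637, 694 and 779 at 2C and at 459.8, 592, 632 and 828 at 8C, a difference of 0.01 ± 0.23 (SE). The zona pellucida gene ZP2 differed by -0.08 ± 0.12 (SE), BMP15 by -0.05 ± 0.17, the meiotic kinase gene MOS by 0.15 ± 0.20, ZAR1 by -0.04 ± 0.23 and NLRP5 by 0.24 ± 0.19. None of these 7 genes was called, and in each the stages overlapped. Without 2C 4 the list had 2 higher genes.

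Factors that degrade or store maternal RNA were called at shares near those of all tested genes, but larger shares passed without the size threshold. Among 53 deadenylation and decay factors BTG2 rose and EXOSC9 fell (1.89% each), with a median difference of 0.11. EXOSC9, a subunit of the RNA exosome, was at 116, 123, 112 and 115 at 2C and at 51.2, 53.1, 45.9 and 39.6 at 8C, and fell by 1.29 ± 0.12 (SE, adjusted p = 0.00031). BTG2, an antiproliferative relative of BTG4, was at 4.84, 4.0, 3.17 and 4.82 at 2C and at 8.06, 11.6, 5.73 and 16.2 at 8C, and rose by 1.06 ± 0.27 (SE, adjusted p = 0.026). Its call was lost without 2C 2 (adjusted p = 0.071), 2C 3 (adjusted p = 0.079), 8C 2 (adjusted p = 0.066) or 8C 4 (difference 0.828), and after median-ratio scaling (difference 0.973). CNOT1, the scaffold of the CCR4-NOT complex, was at 15.6, 19, 19 and 22.3 at 2C and at 15, 14.9, 18.7 and 17.1 at 8C (adjusted p = 0.38). Among 41 storage and translation repressor genes YBX2 rose and FMR1 fell (2.44% each), with a median difference of 0.26. Of the 41, 73.2% had a positive difference, beside 58.9% of all tested genes. An adjusted p under 0.05 in limma, without regard to size, was reached by 31.7% of them and 24.5% of the decay factors. The share was 16.3% of all tested genes. FMR1, the RNA-binding repressor lost in fragile X syndrome, was at 16.2, 14.3, 13.5 and 13.8 at 2C and at 4.34, 2.82, 2.0 and 2.76 at 8C, and fell by 1.99 ± 0.18 (SE, adjusted p = 0.00031). Without 2C 1, 5 genes of the storage list were higher, and without 8C 1 or 8C 3 2 were.

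Most genes for cytosolic ribosomal proteins had a positive difference, smaller than the size required for a call. Of 81 cytosolic ribosomal protein genes 68 had a positive difference (84.0%, beside 58.9% of all tested genes), with a median of 0.42 beside 0.085, but only RPSA was called. At an adjusted p under 0.05 without regard to size there were 13 of them (16.0%), beside 16.3% of all tested genes. RPSA was at 184, 258, 208 and 282 at 2C and at 354, 409.7, 433 and 763 at 8C, and rose by 1.02 ± 0.23 (SE, adjusted p = 0.017). That call was lost without 2C 1 (difference 0.917), 2C 3 (adjusted p = 0.054) or 8C 4 (difference 0.789), and on the TPM scale (difference 0.993) or after median-ratio scaling (difference 0.927). The list's median stayed positive under the 3 other scalings, from 0.32 to 0.40. It was 0.63 without 2C 1 and 0.26 without 2C 4. Without the library 2C 1, 18 of the 81 genes were called higher, without 8C 1 or 8C 3 2 were, and without 2C 3 or 8C 4 none was. The median over 68 mitochondrial ribosomal proteins was -0.055 (0.044 without 2C 1), and 3 of them fell (4.41%, beside 1.37% of all tested genes). MRPL22 was at 93, 69.7, 68.9 and 70.7 at 2C and at 43.3, 21.4, 26.4 and 29.6 at 8C, and fell by 1.33 ± 0.20 (SE, adjusted p = 0.0034). MRPS18C was at 54.6, 27.3, 29.4 and 28.4 at 2C and at 15.3, 17.3, 17.7 and 12.9 at 8C, and fell by 1.05 ± 0.21 (SE, adjusted p = 0.012), with the difference at -0.815 without 2C 1 and at -0.959 without 8C 4. MRPL41 was at 5.28, 6.52, 4.66 and 6.3 at 2C and at 1.39, 3.0, 1.76 and 3.38 at 8C, and fell by 1.02 ± 0.21 (SE, adjusted p = 0.013). Its difference was under 1 in size without 2C 2 (-0.962), 2C 4 (-0.975), 8C 1 (-0.868) or 8C 3 (-0.938). Without 2C 1, 2C 2 or 8C 4 the list had 2 lower genes, and with all 26 libraries in the fit it had 1.

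Nuclear-encoded subunits of the respiratory chain and ATP synthase had the largest share of lower genes among the lists. Of 80 genes on the list 57 were tested, mainly of complex I (35 genes) and ATP synthase (16 genes), with 4 of complex II, 1 of 10 for complex III and cytochrome c and 1 of 11 for complex IV, so that complexes III and IV were hardly analysed here. Of the 57, 6 fell (10.5%, beside 1.37% of all tested genes), none rose and the median difference was -0.19. Without 2C 1 the median was -0.062 and 1 gene was called higher, and without 2C 4 or 8C 2 the median was -0.32. ATP5PO, a stalk subunit of ATP synthase, was at 76.5, 42.9, 39.1 and 31.4 at 2C and at 26.8, 15.2, 14.3 and 13.7 at 8C, and fell by 1.36 ± 0.28 (SE, adjusted p = 0.012). NDUFB7, a complex I subunit, was at 70.3, 38.8, 41.6 and 36.4 at 2C and at 21.1, 22.8, 16.1 and 16.2 at 8C, and fell by 1.22 ± 0.21 (SE, adjusted p = 0.0063). NDUFS5, of the same complex, was at 90.6, 48.9, 42 and 45.8 at 2C and at 31.7, 27.4, 12.6 and 21.1 at 8C, and fell by 1.26 ± 0.30 (SE, adjusted p = 0.021), a call lost without 2C 2 (adjusted p = 0.052). ATP5PD, of the ATP synthase stalk, was at 64.1, 39.8, 35.4 and 24.1 at 2C and at 20.0, 25.1, 16.1 and 8.55 at 8C, where the stages overlapped, and fell by 1.19 ± 0.34 (SE, adjusted p = 0.039). It lost its call without any of 2C 1, 2C 2, 2C 3, 8C 3 and 8C 4, with adjusted p from 0.068 to 0.093. The complex I genes NDUFA6 and NDUFS4 fell by 1.01 and 1.15. In all 6 genes the library 2C 1 was the highest of its stage. Outside the comparison 4C 1 and 16C 3 also stood apart for ATP5PO, which was at 123, 17.9 and 22.9 at 4C and at 17, 16.4 and 112 at 16C. The count of 6 was 4 without 2C 1, 2C 3 or 8C 3, and 3 without 2C 2 or 8C 4. It was 2 when no filter on low values was used and 1 when all 26 libraries entered the fit.

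Genes that build ribosomes had a negative median difference. Of 83 ribosome biogenesis and RNA polymerase I genes 52 had a negative difference (62.7%, beside 41.1% of all tested genes) and 3 fell (3.61%, beside 1.37%). The median was -0.16, and it was -0.082 without 8C 4. TAF1B, of the factor that recruits RNA polymerase I to ribosomal DNA, was at 91.9, 98.3, 96.1 and 96.5 at 2C and at 43.7, 33.1, 29 and 28.4 at 8C, and fell by 1.5 ± 0.14 (SE, adjusted p = 0.00036). NOP58, a core protein of the particles that methylate ribosomal RNA, was at 151, 245, 221 and 218 at 2C and at 71.6, 96.7, 63.7 and 61.9 at 8C, and fell by 1.49 ± 0.18 (SE, adjusted p = 0.0014). UTP20, of the small subunit processome, fell by 1.20 ± 0.15 (SE, adjusted p = 0.0014), from 82.1 ± 11.2 to 35.4 ± 6.14 (SD, n = 4 each). The 3 calls held without any 1 library, and without 8C 1 the list had 5 lower genes.

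**Figure D4:**
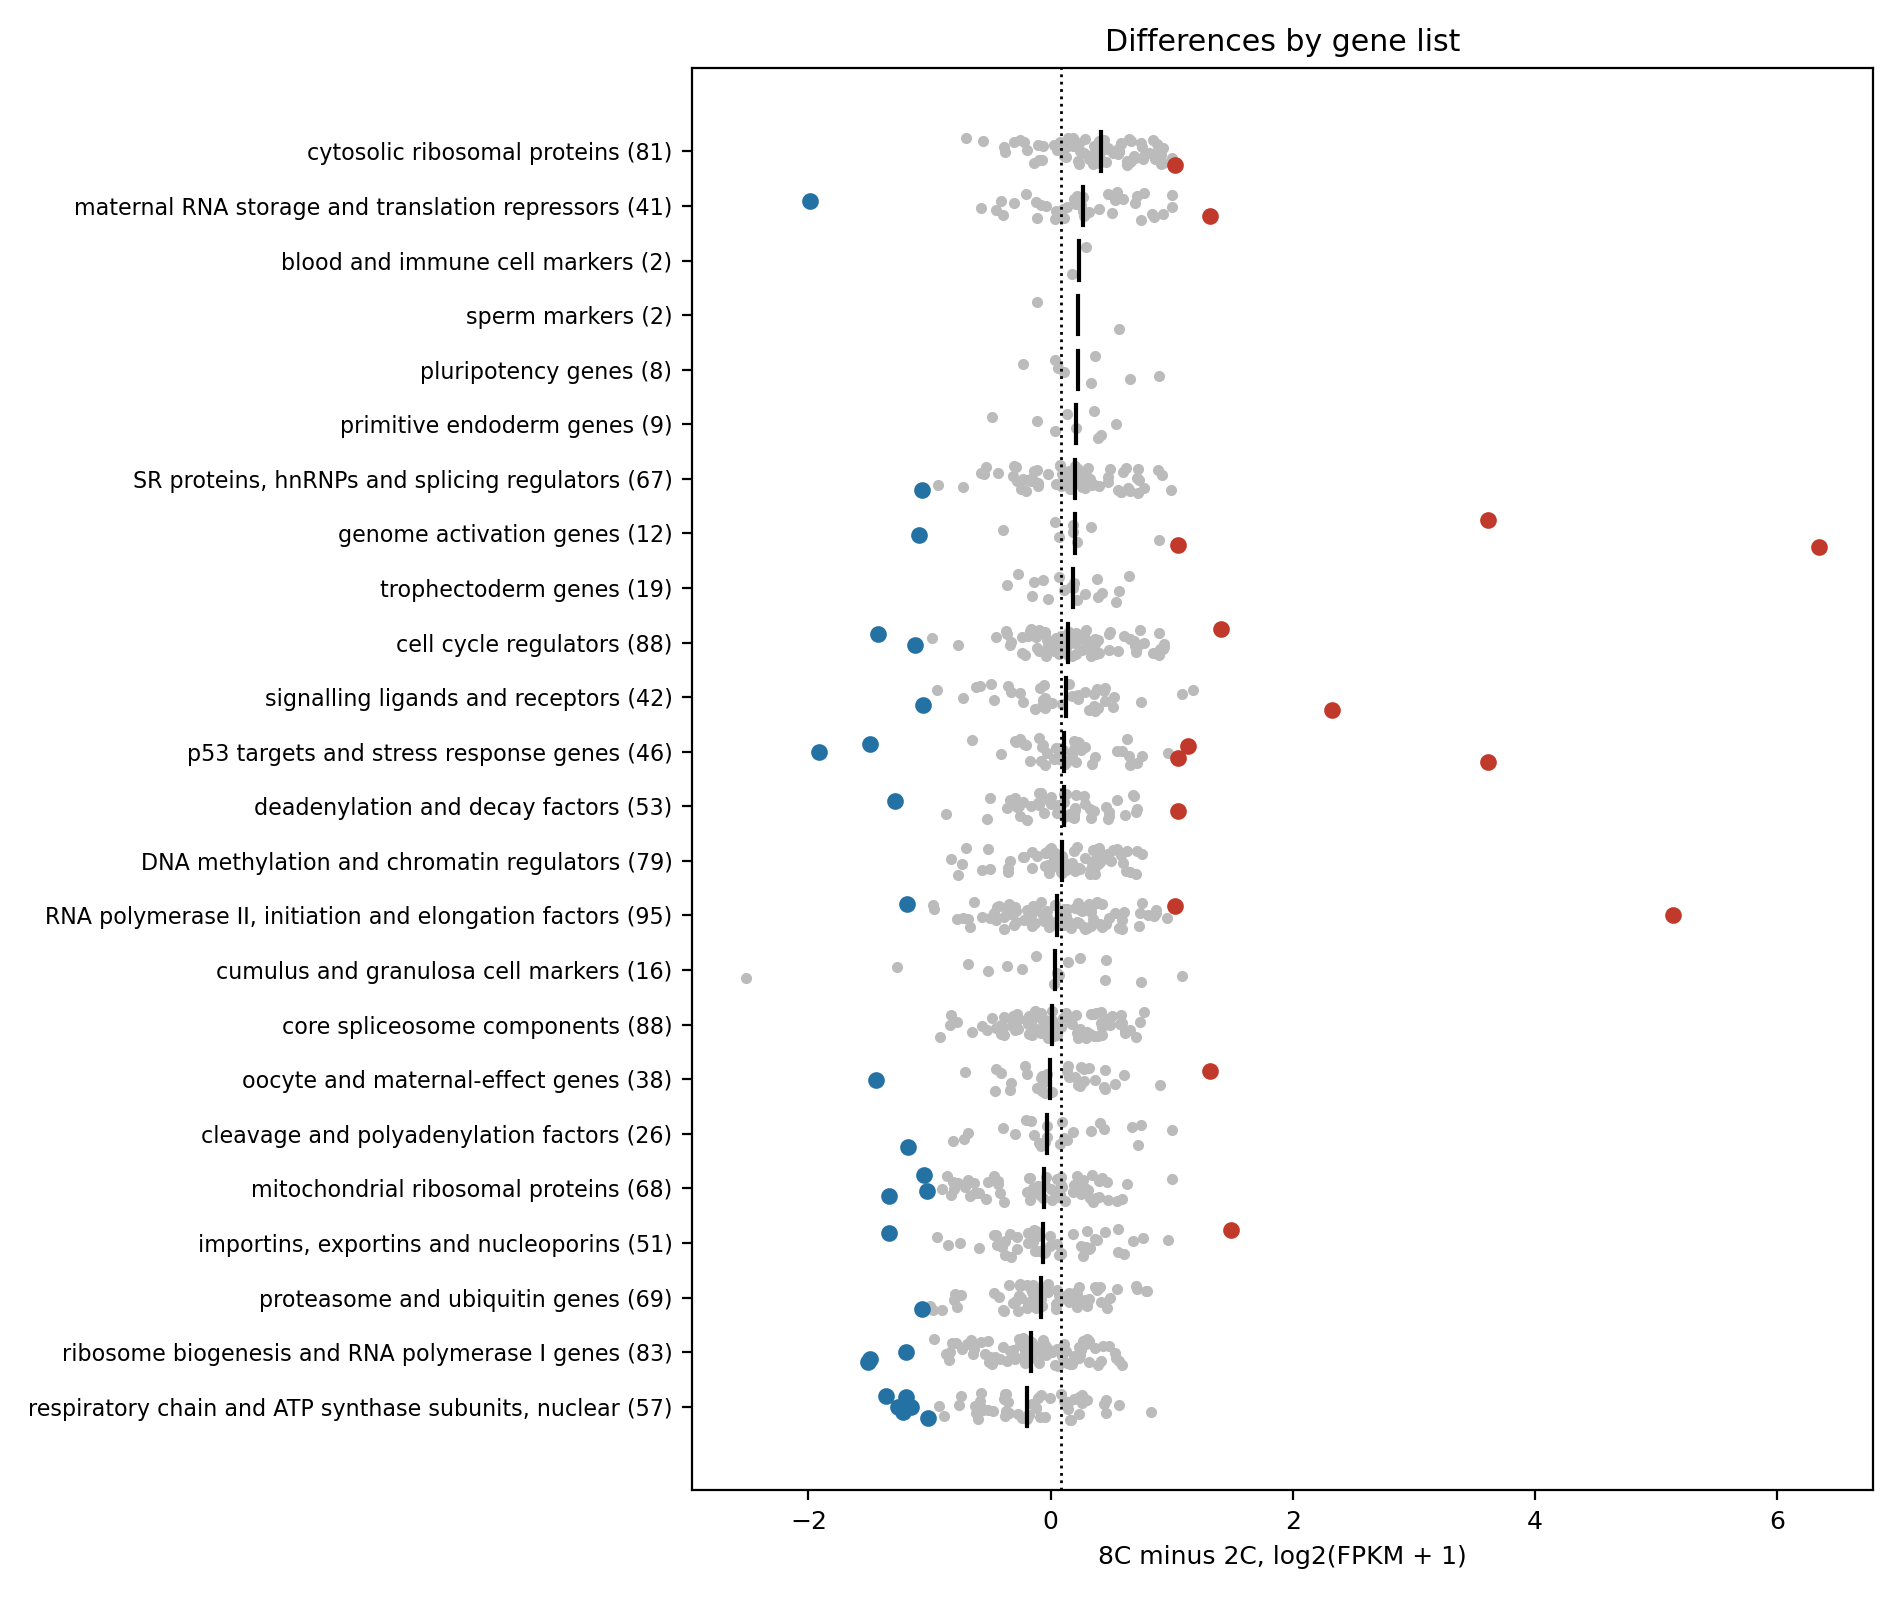
Difference between 8C and 2C on the log2(FPKM + 1) scale for each tested gene of 24 lists, with the number tested in brackets and the lists ordered by their median (black bar). Red points are genes called higher, blue points genes called lower, and the dotted line is the median of all tested genes, 0.085. Cytosolic ribosomal proteins stand at the top with a median of 0.42 and respiratory chain subunits at the bottom with -0.19.

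Of the RNA processing genes SRSF7 and CPSF2 fell and none rose. None of 88 core spliceosome genes was called in limma, and 24 had an unadjusted p under 0.05 (27.3%, beside 32.3% of all tested genes). The list's median of 0.012 turned slightly negative under the 3 other scalings (-0.018 to -0.079). SNRPC, a protein of the U1 particle, was at 63.1, 49.3, 48.9 and 44.9 at 2C and at 27.9, 23.9, 28.3 and 26.8 at 8C. Its difference of -0.91 ± 0.13 (SE, adjusted p = 0.0028) was below the size required, and it was -1.01 after median-ratio scaling. Of 67 SR proteins, hnRNPs and other splicing regulators SRSF7 alone fell (1.49%, beside 1.37% of all tested genes), with a median of 0.20. SRSF7 was at 164, 214, 188 and 217 at 2C and at 80.9, 96, 102 and 92.3 at 8C, and fell by 1.06 ± 0.13 (SE, adjusted p = 0.0012). Without 2C 1 or 8C 3, 2 splicing regulators were called higher. Of 26 cleavage and polyadenylation factors CPSF2 alone fell (3.85%), with a median of -0.031. CPSF2, the large partner of the nuclease that cuts the 3' end of the message, was at 42.1, 46.2, 54 and 41.5 at 2C and at 18.4, 27.7, 21 and 13.7 at 8C, and fell by 1.18 ± 0.19 (SE, adjusted p = 0.0048).

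The transcription machinery gave both directions. Of 95 genes of RNA polymerase II, its initiation factors, Mediator and elongation factors, SUPT4H1 and MED15 rose and MED23 fell. The shares were 2.11% and 1.05%, near the 1.64% and 1.37% of all tested genes. The median of the 95 genes was 0.055, and -0.024 after median-ratio scaling. MED15, a Mediator tail subunit, was at 3.44, 5.1, 4.22 and 4.41 at 2C and at 9.92, 9.72, 7.83 and 11.7 at 8C, and rose by 1.02 ± 0.16 (SE, adjusted p = 0.0039). Its difference was 0.943 without 2C 1 or without 8C 4, and 0.941 after median-ratio scaling. MED23, a second subunit of the tail, was at 5.69, 6.01, 6.13 and 4.45 at 2C and at 1.67, 3.18, 1.3 and 1.63 at 8C, and fell by 1.19 ± 0.20 (SE, adjusted p = 0.0058). Without 8C 3 the list had 5 higher genes, without 2C 1 or 8C 2 it had 3, and without 8C 4 it had 1. Without any of 2C 1, 2C 2, 2C 4, 8C 1, 8C 2 and 8C 4 it had 2 lower genes. None of 79 DNA methylation and chromatin regulators was called in limma, with a median of 0.096 and 26 genes at an unadjusted p under 0.05 (32.9%). DNMT1, the maintenance DNA methyltransferase, was at 520.5, 562, 568 and 559 at 2C and at 379, 339, 319 and 267 at 8C, a difference of -0.77 ± 0.12 (SE, adjusted p = 0.0041) whose libraries did not overlap but which was below the size required. SIRT1, a deacetylase, was at 6.16, 5.4, 4.84 and 4.63 at 2C and at 3.84, 2.65, 2.35 and 1.6 at 8C, a difference of -0.82 (adjusted p = 0.021). Of 51 importins, exportins and nucleoporins NXF1 rose and TPR fell (1.96% each), with a median of -0.063. TPR, the filament protein of the nuclear basket, was at 32.6, 32.9, 28 and 34.4 at 2C and at 13.8, 14.7, 12.3 and 8.39 at 8C, and fell by 1.33 ± 0.17 (SE, adjusted p = 0.0016). Without 2C 4 or 8C 3 the transport list had 2 higher genes, and without 8C 1 it had 3 lower genes.

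Among 88 cell cycle regulators 1 rose (1.14%) and 2 fell (2.27%), with a median of 0.14. Of all tested genes 1.64% were called higher and 1.37% lower. FBXO5, or EMI1, restrains the anaphase-promoting complex. It was at 434, 515, 469 and 467 at 2C and at 196, 172, 166 and 166 at 8C, with little spread at either stage, and fell by 1.42 ± 0.10 (SE, adjusted p = 0.0001). PCNA, the sliding clamp of DNA replication, was at 991, 1344, 1321 and 1442 at 2C and at 683, 495, 644 and 520.1 at 8C, and fell by 1.12 ± 0.15 (SE, adjusted p = 0.0023). SPDYC, an activator of cyclin-dependent kinases, was at 0.634, 0.302, 0.386 and 0.265 at 2C and at 0.711, 2.01, 3.89 and 6.3 at 8C, and rose by 1.41 ± 0.38 (SE, adjusted p = 0.032). The SPDYC call was lost without any of 2C 2, 2C 3, 2C 4, 8C 2, 8C 3 and 8C 4, with adjusted p from 0.053 to 0.084. Without 8C 1 the list had 4 higher and 3 lower genes, and without 2C 1 it had 3 of each.

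Of 46 p53 targets and stress response genes BTG2, HSF1 and PMAIP1 rose and PPP1R15B and SQSTM1 fell, with a median of 0.11. The shares were 6.52% and 4.35%, beside 1.64% and 1.37% of all tested genes. HSF1, the heat shock transcription factor, was at 2.66, 2.05, 2.24 and 1.81 at 2C and at 3.93, 5.59, 6.57 and 8.71 at 8C, and rose by 1.14 ± 0.21 (SE, adjusted p = 0.0079). Its difference was 0.98 without 8C 4, which left 1 higher gene on the list. SQSTM1, the autophagy receptor p62, was at 52.7, 60.2, 55 and 57.1 at 2C and at 23.8, 16, 20.1 and 18.2 at 8C, and fell by 1.49 ± 0.13 (SE, adjusted p = 0.00031). Without 2C 2, 2C 3 or 8C 2 the list had 2 higher genes. Of 69 proteasome and ubiquitin genes PSMA7, a subunit of the core ring, was the one that fell (1.45%), with a median of -0.077. PSMA7 was at 149, 82.3, 79.7 and 72 at 2C and at 54, 47.5, 28.6 and 47.8 at 8C, and fell by 1.06 ± 0.25 (SE, adjusted p = 0.02), with the difference at -0.833 without 2C 1 and at -0.870 without 8C 3. That list had 2 lower genes without 2C 1 or 8C 2 and 3 without 8C 1. Of 42 signalling ligands and receptors WNT16 rose and BMP4 fell (2.38% each), with a median of 0.12. BMP4, a growth factor of the TGF-beta family, was at 3.25, 4.12, 3.65 and 4.46 at 2C and at 0.632, 1.01, 1.85 and 2.22 at 8C, and fell by 1.05 ± 0.22 (SE, adjusted p = 0.014). Its difference was -0.993 without 2C 4, -0.876 without 8C 1 and -0.975 without 8C 2. Without 2C 3 the list had 2 lower genes, and without 8C 4 it had 2 higher genes.

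Embryos of the 4-cell stage, which the comparison did not use, had a median position nearer to 2C for the rising genes and near the middle for the falling ones. The position of a gene's 4C mean was set to 0 at its 2C mean and to 1 at its 8C mean, so it shares those 8 libraries. Over the 173 higher genes the median position was 0.192, with quartiles of 0.0652 and 0.356. There were 105 genes under 0.25 (60.7%), 61 from 0.25 to 0.75 (35.3%) and 7 above (4.05%). Over the 144 lower genes the median was 0.472, with quartiles of 0.310 and 0.587, and the counts were 25 (17.4%), 104 (72.2%) and 15 (10.4%). Over all tested genes, most of which differ little between 2C and 8C, the median was 0.312 and the shares were 46.9%, 22.1% and 31.0%. The 3 4C libraries differed in this. The median position of the higher genes was 0 in 4C 1, 0.280 in 4C 2 and 0.363 in 4C 3, and that of the lower genes was 0.0827, 0.674 and 0.635. Without 4C 1 the medians were 0.314 and 0.658. Without 4C 2 they were 0.174 and 0.337, and without 4C 3 0.0873 and 0.379. In each case the median of the lower genes was the larger. The order of the 2 medians was not tested.

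**Figure D5:**
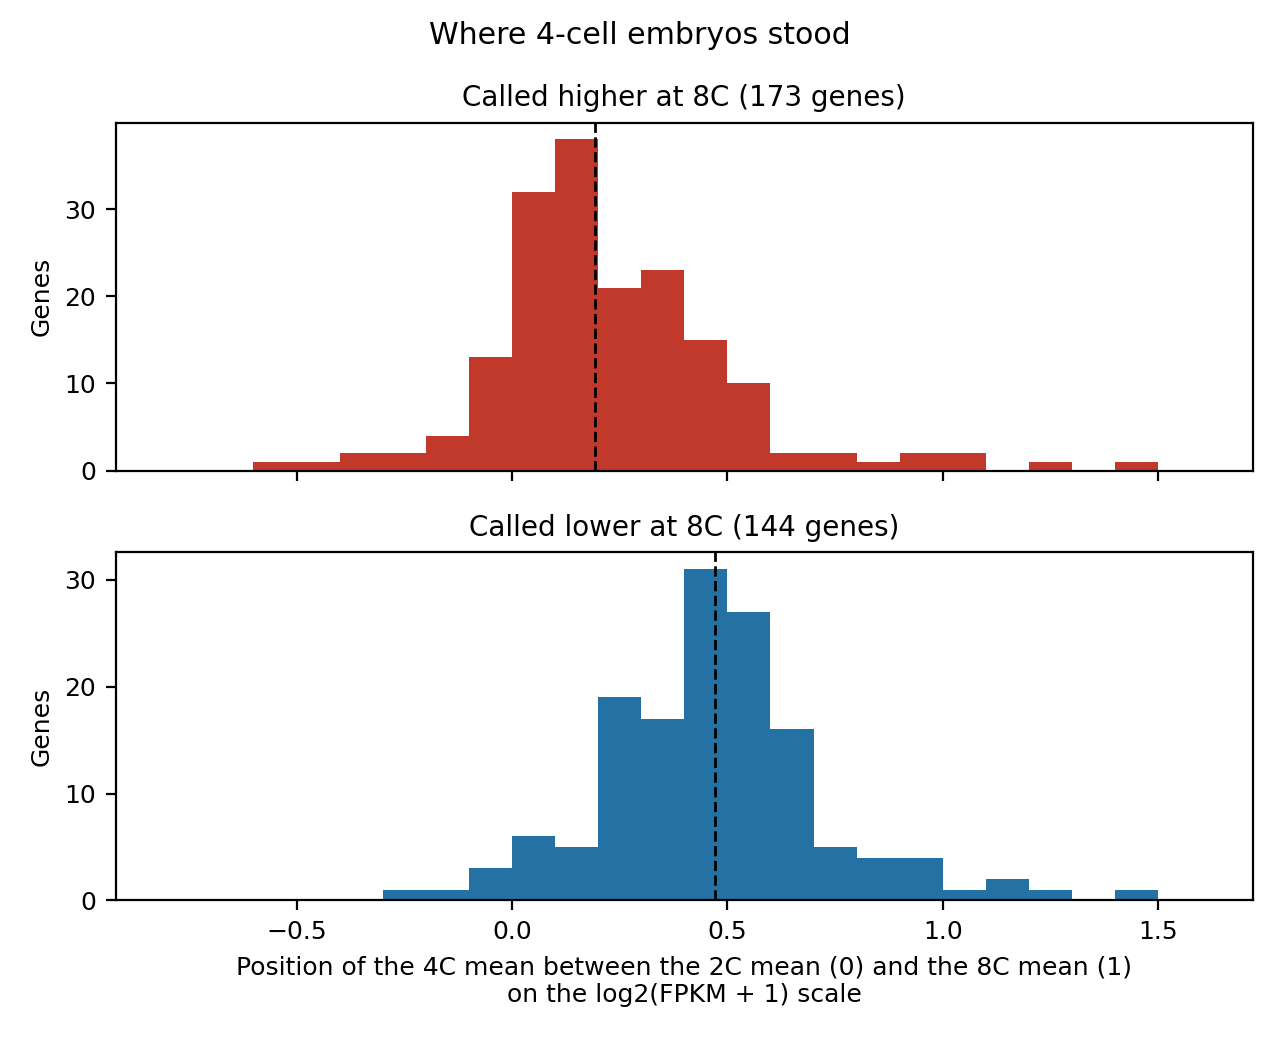
Number of called genes by the position of the 4C mean between the 2C mean (0) and the 8C mean (1) on the log2(FPKM + 1) scale, for the 173 higher genes (top) and the 144 lower genes (bottom). Dashed lines mark the medians, 0.192 and 0.472.

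The 8C libraries differed among themselves in how far they stood from 2C, in both directions. For the higher genes 8C 1 was the lowest 8C library in 98 of 173 and 8C 4 the highest in 88. For the lower genes 8C 1 was the highest in 74 of 144 and 8C 4 the lowest in 69. Over all tested genes these shares were 28.2%, 30.3%, 26.3% and 24.2%, where the called genes gave 56.6%, 50.9%, 51.4% and 47.9%. Among the 71 newly detected genes 8C 1 was lowest in 54 and 8C 3 highest in 42, whereas among the other 102 higher genes 8C 4 was highest in 67. The median SD within a stage on the log2(FPKM + 1) scale was 0.167 at 2C and 0.511 at 8C for the higher genes, and 0.202 and 0.356 for the lower genes. It was 0.202 and 0.267 over all tested genes. The mean correlation with the 2C libraries was 0.962 for 8C 1 and 0.939 for 8C 4. Without 8C 1 the comparison called 236 genes higher and 166 lower. Without 8C 4 it called 121 and 126. Of the main calls, 72 of the 173 higher genes and 81 of the 144 lower genes remained when any 1 of the 8 libraries was left out.

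Markers of other cells that could adhere to or enter an embryo gave no called gene. Most of the sperm and blood markers were below an FPKM of 1 in all 8 libraries. The summed FPKM of 25 cumulus and granulosa cell markers was 119 to 374 at 2C and 72.8 to 268 at 8C, and none of the 16 tested was called in limma, with 2 at an unadjusted p under 0.05. LUM, a matrix proteoglycan, was the most abundant, at 134, 179.9, 61.1 and 37.4 at 2C and at 27.8, 82.7, 113 and 5.22 at 8C (adjusted p = 0.32). TNFAIP6, a matrix protein of the expanded cumulus, was at 49.4, 41, 17.3 and 1.28 at 2C and at 1.01, 2.16, 5.2 and 1.08 at 8C, a difference of -2.52 ± 0.84 (SE, adjusted p = 0.067), and 1 marker of this list was called lower without 2C 4 and 1 higher without 8C 4. For 16 sperm markers the sums were 5.12 to 10.6 and 7.57 to 11.1, and PRM2, TNP2, AKAP3, ACR and CATSPER1 were listed at 0 in all 8 libraries. Of these 16, 14 were below an FPKM of 1 in all 8 libraries. The most abundant was ODF2, at 6.0, 3.86, 5.29 and 3.99 at 2C and at 7.86, 7.34, 6.02 and 8.92 at 8C. For 16 blood and immune cell markers the sums were 40.5 to 163 and 9.14 to 250.0, mostly from SRGN. Of these, 13 were below an FPKM of 1 in all 8 libraries, and LST1 and CD74 were listed at 0 throughout. SRGN was at 61.5, 140.0, 40.0 and 38.6 at 2C and at 114, 173, 246 and 5.47 at 8C (adjusted p = 0.88). The part of such cells in the changes described above was not tested.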

How the data were processed

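The authors deposited 1 table of FPKM values per gene and library, for poly(A) RNA copied by Smart-seq2, per the labels' protocols. Tools named in the submitters' processing notes, without their roles, are featureCounts 2.0.1, HISAT2 2.1.0, fastp 0.23.4 and SAMtools 1.9. No source used here gives the genome build, the annotation or the treatment of reads with several matches.

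Groups came from the sample titles. The value of 1 read was read off FPKM steps of short RNA genes, whose values of up to 20 reads were whole within 0.05 reads in 100.0% of cases, and this gave the depth. With 30.7 to 35.6 assigned reads per library (in units of 1e6), counting error is small except near 0, though reads without molecular identifiers are not independent molecules.

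Genes that reached an FPKM of 1 in 2 or more of the 8 libraries were tested on log2(FPKM + 1), which understates changes of low genes, with limma 3.58.1 in R 4.3.3 (lmFit, eBayes with intensity trend, two-sided, 6 residual and 4.29 prior degrees of freedom). P-values were Benjamini-Hochberg adjusted over all tested genes, and calls needed an adjusted p under 0.05 and a difference of at least 1. The method was tested on simulated data drawn around the 10518 genes of the comparison of 8C with 2C: it recovered 50 of 50 genes changed by 3 and 47 of 50 raised by 1.5, and called 2 of 9982 unchanged genes. The changed genes were drawn only from well-expressed genes, with normal noise of equal spread at both stages, drawn for each gene on its own. Recovery of genes near 0 at 2C, or with a larger spread at 8C, was therefore not checked. Nor were false calls where many genes of a library shift together.

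Named genes were the 12 largest rises and falls among called, non-overlapping genes with a mean of at least 5, the most changed members of 24 gene lists, and a fixed set of well-known genes. Some genes that this rule names are not reported here. Members and lists were chosen with earlier results of these data known, so list counts and medians are descriptions. Alternatives covered the pseudocount, filters, 3 scalings, all 26 libraries, the trend, the replicate block, the size threshold and each library left out. Gene order came from RefSeq (25443 of 30186 symbols matched), and no coordinates are given because the builds may differ.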

Additional observations from a re-analysis of the deposited data

Results flagged for a closer look

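Each stage of 4 libraries was checked for a single library far from the other three, for 158 combinations of a named gene and a stage. Chance alone flags about 1 group in 20, and 8 were found, 4 of them in the library 2C 1. In 2C 1, COMMD1 was at 20.0 FPKM where the other 2C libraries were at 12.8 to 13.6, MRPL22 was at 93.0 against 68.9 to 70.7, and MRPS18C was at 54.6 against 27.3 to 29.4. The fourth was PRPF38A, a splicing factor gene that was not called, at 160.0 in 2C 1 against 228 to 235. At 2C ANXA2R was at 0.0643 in 2C 4 and NANOG at 0.172 in 2C 3, each listed at 0 in the other three. At 8C C22H10orf143 was at 40.7 in 8C 4 against 13.3 to 16.1, and ATP5PO was at 26.8 in 8C 1 against 13.7 to 15.2. Without 2C 1 the difference of MRPS18C was -0.815, below the size required for a call, whereas COMMD1, MRPL22 and ATP5PO stayed called without any 1 library. MRPL22 (adjusted p = 0.055 in limma) and ATP5PO (adjusted p = 0.096) lost their calls with all 26 libraries in the fit.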

How the results depend on the processing

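No gene called in the main comparison changed sign under any alternative. The numbers of higher and lower genes, 173 and 144, became 361 and 234 with 0.1 added before taking logs and 1013 and 702 with no threshold on the size of the difference. On the TPM scale they were 254 and 217, and with no filter on low values 113 and 115. Median-ratio scaling gave 127 and 196, and quantile normalization 124 and 195, so that the share of higher genes among the calls went from 54.6% to 39.3% and 38.9%. With each library left out in turn the counts ran from 113 to 236 and from 122 to 166, the lowest counts of higher genes being 114 without 2C 2 and 113 without 2C 3. Without 8C 4 there were 121 higher genes. The difference in detected genes, 500.8, was 420.8 to 617.4 with 1 library left out (exact permutation p from 0.0571 to 0.114) and 546.2 on the TPM scale (exact permutation p = 0.0286). Whether replicate numbers pair the libraries was left unresolved. Deviations of same-numbered libraries correlated at 0.20, 0.02, -0.02 and 0.33, and 2 of 4 pairs correlated best with their own number. The other combinations ran from -0.32 to 0.21. With the replicate block 188 genes were higher and 146 lower, and the difference in detected genes had an exact sign-flip p = 0.25. The block ended none of the 54 calls of named genes. The median 4C positions, 0.192 and 0.472, ran from 0.0873 to 0.314 and from 0.337 to 0.658 with 1 4C library left out, settings added after the data were seen. Of 54 named calls 11 were lost with no filter on low values and 8 with all 26 libraries in the fit.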

Other observations

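Most genes that appeared between 2C and 8C were low again in expanded blastocysts. Of the 71 genes below an FPKM of 1 in every MII and 2C library and higher at 8C, 54 were below 1 in every expanded blastocyst library (76.1%, beside 21.0% of all tested genes). In every early blastocyst library 25 were below 1 (35.2%, beside 15.2%). The stretch of 8 neighbouring genes that includes LOC114110154 summed to 659, 1540 and 75.5 at 16C and to 0.0232, 0.0634, 0.171 and 0.390 in the 4 expanded blastocyst libraries. The stretch of 7 that includes LOC101111473 summed to 100.0, 1670 and 45.0 in the 3 morula libraries, so that 1 morula library stood far above the other two. The stretch of 3 genes that includes LOC101115155 summed to 14.9, 33.1, 188 and 141 at 8C and to 0.746, 0 and 6.47 in morulae. A pair that includes LOC101120447 differed from these. It summed to 3.01 to 5.34 at 8C and to 84.2, 121 and 75.8 in morulae.

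Several genes that fell from 2C to 8C were high in later stages. NOP58 was at 163, 328 and 797 at 16C and at 753, 895 and 768 in morulae, and SRSF7 was at 873, 1117 and 915 in morulae. COMMD1 was at 62.3, 73.6 and 45.6 in morulae, above all 8 libraries of the comparison. CEP170 stayed low in morulae, at 5.31, 4.77 and 5.45, and NPM2 was at 0.599, 3.44 and 3.30. These are levels with no test.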
